A study of Mus musculus with 6 samples.

Results

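The 8 genes of iron and heme recycling described here were followed through mouse splenic CD11b+Gr-1high cells: Spic, Cd163, Hmox1, Slc40a1, Slc11a1, Fth1, Ftl1 and Tfrc. They were taken by symbol, with every probe that the array's annotation gives to them, which made 17 probes among the 45281 of the bead array. Of these, 14 were kept among the 17631 probes that passed the filter on dim signal, and all 8 genes stood among the 12492 tested. Hmox1 had 1 probe, Slc11a1 had 4, and the others had 2 each. The second probes of Slc40a1, Ftl1 and Cd163 were above the negative controls on no array and were left out.

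The cells came from 3 groups of 2 arrays each, all mice of H-2b background. The first group was IRF8 KO mice without a tumor (KO below), which lack the myeloid transcription factor that Irf8 encodes. The second was wild-type mice bearing a tumor grown from AT-3 cells, a mouse mammary carcinoma line (AT-3 below). The third was wild-type mice without a tumor. The labels give neither the knockout allele, nor age or sex, nor how many animals or which sort each array stands for, so the spread between 2 arrays may be technical in part. CD11b with high Gr-1 marks neutrophils and their immature and tumor-expanded forms, and the study set the KO and tumor-bearing mice beside wild type to ask how IRF8 bears on such cells.

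Iron recycling in the spleen is mainly the work of red pulp macrophages, which take up old red blood cells. Heme oxygenase 1 (Hmox1) opens the heme ring and frees the iron, ferritin (Fth1 and Ftl1) stores it, and ferroportin (Slc40a1) carries it out of the cell. NRAMP1 (Slc11a1) moves divalent metal out of the phagosome, CD163 takes up hemoglobin bound to haptoglobin, and the transferrin receptor (Tfrc) brings in iron from plasma. Spi-C (Spic) is the ETS-family transcription factor that mouse red pulp macrophages need, and heme induces it in monocytes. Human neutrophils carry NRAMP1 in their granules, and erythroid precursors are known for very high transferrin receptor.

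The 6 arrays had mean intensities of 406.9 and 421.3 in KO, 283.7 and 264.7 in AT-3, and 397.1 and 379 in wild type, with 31.0% to 38.4% of probes detected. Values below are log2 signals after background correction and quantile normalization, and a difference is that of 2 group means, with its standard error (SE) from limma. Adjusted p is Benjamini-Hochberg over all 12492 genes, and a gene "rose" or "fell" where it was under 0.05. Irf8 itself was at 4.85 and 5.34 in KO against 6.86 and 6.70 in wild type, a fall of 1.69 ± 0.31 (SE, adjusted p = 0.0063 by limma). In AT-3 it was at 8.82 and 8.09, above wild type by 1.67 ± 0.31 (limma, adjusted p = 0.0065). On leaving out wild-type array 1 or the background correction Irf8 did not pass in KO (adjusted p up to 0.0553, smallest difference -0.64), nor in AT-3 on leaving out wild-type array 2 or the scaling between arrays (adjusted p up to 0.0625). Where its probe lies relative to the deleted part was not analysed here. All 11 neutrophil markers on the array were detected in every group, some of them at low signal, as Mmp8 at 5.86 and 5.89 in wild type.

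Of the 8 genes, 6 fell in KO and 5 fell in AT-3. Spic, Cd163, Hmox1, Slc40a1 and Slc11a1 fell in both groups, while Ftl1 fell in KO, Tfrc rose in AT-3, and Fth1 passed the test in neither. In KO against wild type 6 members fell and none rose, where 31.9% of all genes were called (16.5% lower and 15.4% higher). In AT-3 against wild type 5 fell and 1 rose, where 34.9% of all genes were called (17.6% lower and 17.3% higher). The members' median log2 difference was -1.40 in KO and -1.09 in AT-3, beside -0.01 over all genes in each. Spic and Cd163 passed the filter on dim signal only through the wild-type arrays, so that their falls were in part built in. The counts and medians that include them are a description. The order of the falls depended on the processing: without background correction the KO difference was -2.44 for Slc11a1, -2.11 for Spic, -1.75 for Slc40a1 and -1.59 for Hmox1. Both comparisons share the wild-type arrays. Both KO arrays lay below both wild-type arrays for 6 members and above for 1, as they did for 34.7% and 34.5% of all genes. Both AT-3 arrays lay below for 7 members and above for 1, beside 36.5% and 35.4% of all genes. Without either wild-type array 4 members were called in KO and 3 in AT-3, and 3 were called in AT-3 without its array 1.

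**Figure D1:**
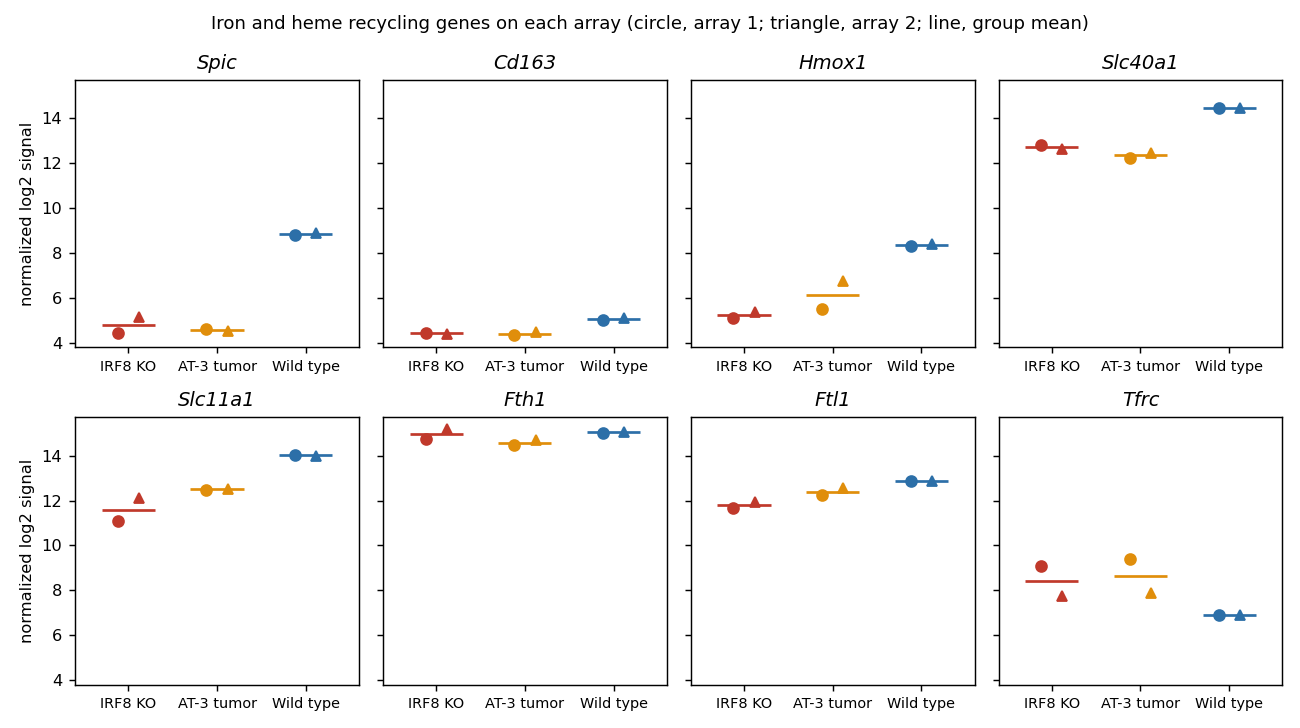
Normalized log2 signal of the brightest probe of each member on each array (circle, array 1; triangle, array 2; line, mean of 2 arrays), with IRF8 KO on the left, AT-3 tumor in the middle and wild type on the right. Wild type stands above both other groups for Spic, Hmox1, Slc40a1, Slc11a1 and Ftl1, by a small margin for Cd163, and below both for Tfrc, whose KO and AT-3 arrays lie far apart.

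**Figure D2:**
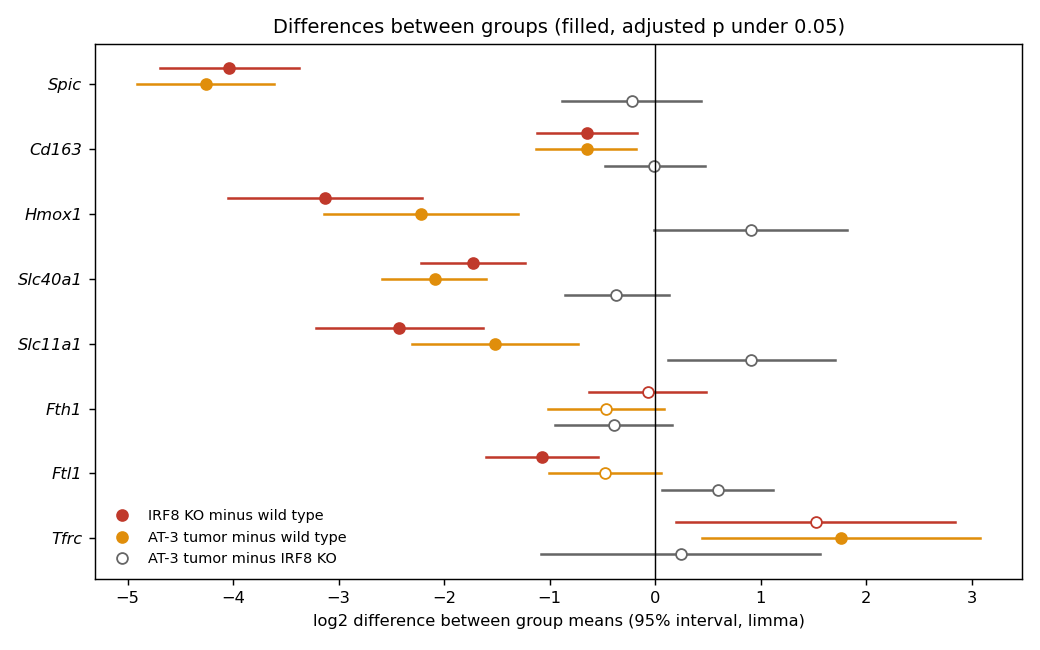
Log2 differences between group means (points) with 95% intervals from limma (lines) for KO set against wild type, AT-3 set against wild type and AT-3 set against KO, and filled points passed the adjusted threshold. Spic lies farthest to the left of 0 in both comparisons with wild type, where its AT-3 point and both Cd163 points rest on groups not detected on either array, and no point of AT-3 against KO is filled.

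Spic encodes the macrophage regulator named above. Its brighter probe read 109.7 and 149.6 intensity units in KO, 120.8 and 117.1 in AT-3, and 606.5 and 590.2 in wild type. As normalized log2 signal this was 4.42 and 5.16 in KO, 4.59 and 4.53 in AT-3, and 8.78 and 8.87 in wild type. The signal was well above the negative controls on both wild-type arrays, on KO array 2 but not array 1, and on neither AT-3 array. Wild type lay above both other groups, and the AT-3 values lay within those of KO. In KO, Spic fell by 4.04 ± 0.28 (SE, limma, adjusted p = 0.00035), a 16.4-fold lower signal that rests on KO values at or near the floor. In AT-3 it was at least 13.8-fold lower (limma, adjusted p = 0.000424). Of all genes tested, 50 had a larger fall than Spic in KO. Both calls held in all 18 alternatives that tested Spic, and the KO difference was smallest without background correction, at -2.11. Outside wild type this probe was detected on KO array 2 alone, so it passed the filter only through the wild-type arrays. Its falls were thus in part built in, and their p-values, rank and calls are a description. The second Spic probe was dimmer, with 4.58 and 4.30 in KO, 4.32 and 4.79 in AT-3, and 6.25 and 5.65 in wild type. It was not detected in KO or AT-3 and passed the filter only through the wild-type arrays, so its lower signal in both, at least 2.16-fold in KO and at least 1.87-fold in AT-3, is a description.

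Cd163, the hemoglobin scavenger receptor, was near the floor of the array. Its kept probe read 110.3 and 121.4 intensity units in KO, 109.1 and 114.8 in AT-3, and 131 and 125.6 in wild type, and it was detected in wild type alone, with detection p-values of 0.0449 and 0.0235. Its log2 signals were 4.43 and 4.39 in KO, 4.33 and 4.47 in AT-3, and 5.01 and 5.11 in wild type. Cd163 was at least 1.17-fold lower in KO (limma, adjusted p = 0.0466) and at least 1.01-fold lower in AT-3 (adjusted p = 0.0424). In KO it did not pass in 14 of 18 alternatives, among them leaving out any single array, with adjusted p up to 0.241 without wild-type array 2. In AT-3 it did not pass in 9 of 18, with adjusted p of 0.139 and 0.0788 without AT-3 arrays 1 and 2, 0.163 and 0.219 without wild-type arrays 1 and 2, and 0.552 with arrays scaled on detected probes.

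Most markers of red pulp and tissue macrophages were lower in KO and in AT-3 than in wild type. Their summed normalized signal over the 17 markers on the array was 1130 and 1260 in KO, 1640 and 2120 in AT-3, and 15700 and 13500 in wild type. Of the 17, 12 were detected in KO, 8 in AT-3 and 15 in wild type. Among the 14 tested, 13 fell in KO and 13 fell in AT-3, with medians of -3.69 and -3.24, and Marco passed in neither, where 16.5% and 17.6% of all genes fell. Siglec1 and C1qa were detected in wild type alone, and Itgad was detected outside wild type on KO array 2 alone. All of these entered the test only through wild type, so that their falls were in part built in, and the counts and medians are a description. C1qc, a chain of complement C1q that macrophages make, fell by 5.88 in KO and by 5.61 in AT-3. Vcam1, an adhesion molecule that red pulp macrophages carry, fell by 3.35 in KO and by 5.51 in AT-3. Between AT-3 and KO no member passed, while 3 of the 14 markers were higher in AT-3 and 1 was lower. Over all genes 6.16% were higher and 5.34% lower there. Csf1r, Axl and Adgre1 were higher by 2.56, 2.23 and 1.23. Vcam1 was lower by 2.15, which did not pass with those 4 arrays alone. Siglec1, C1qa, Cd5l, Timd4 and Maf were not detected in KO, and those 5 with Itgad, Mrc1, Marco and Nr1h3 were not detected in AT-3, while Cd5l and Maf were not detected in wild type either. Monocyte markers differed between the 2 comparisons, with sums of 4740 and 7280 in KO, 19500 and 21200 in AT-3, and 12900 and 12100 in wild type over 8 markers. Of 6 tested, 5 fell in KO, while 4 rose and 1 fell in AT-3, where 17.3% of all genes rose and 17.6% fell. In a bulk sample fewer cells of a type and less RNA per cell cannot be told apart, and the part of these markers in the members' differences was not tested.

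Some markers of the sorted cells themselves also differed. Of the 11 neutrophil markers tested, 3 rose and 2 fell in KO, and 4 rose and 2 fell in AT-3. Over all genes 15.4% rose and 16.5% fell in KO, and 17.3% rose and 17.6% fell in AT-3. The falls of the list were near that share. The receptor genes Csf3r and Cxcr2 fell by 2.25 and 2.06 in KO and by 2.08 and 1.06 in AT-3. On the same list S100a8, S100a9, Ltf, Mmp9 and Retnlg passed in neither comparison. The differences were -0.17 in KO and -0.11 in AT-3 for Mmp9, and 0.16 and 0.11 for Retnlg. Itgam, which encodes CD11b, rose by 2.06 in KO and 1.65 in AT-3, and the granule gene Ngp by 1.42 in KO and 1.21 in AT-3. The summed signal, carried by a few bright genes, was 165000 and 184000 in KO, 182000 and 188000 in AT-3, and 145000 and 154000 in wild type. The part of these differences in those of the members was not tested.

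**Figure D3:**
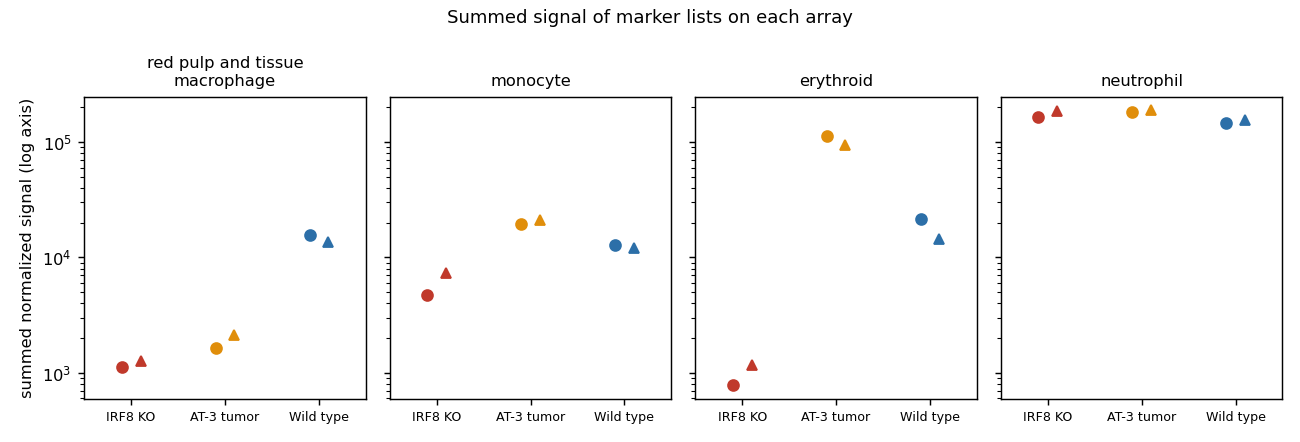
Summed normalized signal (log axis) of 4 marker lists on each array, for KO, AT-3 and wild type. The macrophage sum is high in wild type alone, the erythroid sum is highest in AT-3 and lowest in KO, and the neutrophil sum lies between 145000 and 188000.

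Hmox1 encodes the inducible enzyme that breaks down heme. Its only probe read 137.9 and 157.1 intensity units in KO, 137.3 and 168 in AT-3, and 461.5 and 435.4 in wild type. As log2 signal it stood at 5.11 and 5.35 in KO, 5.51 and 6.77 in AT-3, and 8.33 and 8.39 in wild type. Neither KO nor AT-3 overlapped wild type, and AT-3 array 2 lay well above AT-3 array 1. Hmox1 fell by 3.13 ± 0.39 in KO, or 8.74-fold (SE, limma, adjusted p = 0.00158), a fall that 159 genes exceeded. It fell by 2.22 ± 0.39 in AT-3, or 4.66-fold (limma, adjusted p = 0.00566), a fall that 330 genes exceeded. Both calls held in all 19 alternatives. Without background correction the differences were -1.59 in KO and -1.26 in AT-3, and the AT-3 difference was -1.59 without AT-3 array 1 and -2.85 without AT-3 array 2.

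Slc40a1 encodes ferroportin, the known cellular iron exporter of vertebrates. The intensity of its kept probe was 8529.8 and 7739.4 in KO, 3154.9 and 3520.6 in AT-3, and 24469.9 and 24016.8 in wild type. Its log2 signal was 12.82 and 12.64 in KO, 12.25 and 12.47 in AT-3, and 14.46 on both wild-type arrays. All 3 groups kept apart, with AT-3 lowest. Slc40a1 fell by 1.73 ± 0.21 in KO, or 3.31-fold (SE, limma, adjusted p = 0.00148), and by 2.09 ± 0.21 in AT-3, or 4.26-fold (adjusted p = 0.00101). A larger fall was seen in 725 genes in KO and in 386 genes in AT-3. Both calls held in all 19 alternatives, with differences of -1.81 to -1.59 in KO and -2.90 to -1.98 in AT-3.

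Slc11a1, which encodes NRAMP1, was the member with the most probes. The brightest read 2692.2 and 5609.3 intensity units in KO, 3794 and 3655.1 in AT-3, and 18120.9 and 17817.3 in wild type. In log2 units this was 11.07 and 12.11 in KO, 12.46 and 12.53 in AT-3, and 14.03 and 14.00 in wild type. The KO arrays differed from each other by more than the AT-3 or the wild-type arrays did, yet in normalized log2 units both lay below AT-3 and wild type. As intensity, KO array 2 lay above both AT-3 arrays. Slc11a1 fell by 2.43 ± 0.34 in KO, or 5.37-fold (SE, limma, adjusted p = 0.0023), and the call held in all 19 alternatives. In AT-3 it fell by 1.52 ± 0.34, or 2.86-fold (limma, adjusted p = 0.0132). This fall did not pass on leaving out any 1 array of the pair of groups, with an adjusted p of 0.065 and 0.0524 for AT-3 arrays 1 and 2, and 0.0794 and 0.0776 for wild-type arrays 1 and 2.

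The other Slc11a1 probes ran the same way with different precision. The second gave -2.80 ± 0.39 in KO (SE, limma over all probes, adjusted p = 0.00208) and -1.70 in AT-3 (adjusted p = 0.0142). The third read 7.77 and 9.13 in KO, 8.67 and 9.37 in AT-3, and 10.80 and 9.31 in wild type, whose second array lay below one of the AT-3 arrays. Its differences of -1.60 in KO and -1.04 in AT-3 did not pass (adjusted p = 0.075 and 0.216). The fourth, at 7.31 and 8.87 in KO, 8.29 and 9.09 in AT-3, and 10.36 and 9.38 in wild type, fell in KO (-1.79 ± 0.56, adjusted p = 0.0455), and its AT-3 difference of -1.18 did not pass (adjusted p = 0.145). Over all probes tested singly, 31.3% were called in KO (15.7% lower and 15.6% higher) and 32.6% in AT-3 (17.2% lower and 15.4% higher).

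**Figure D4:**
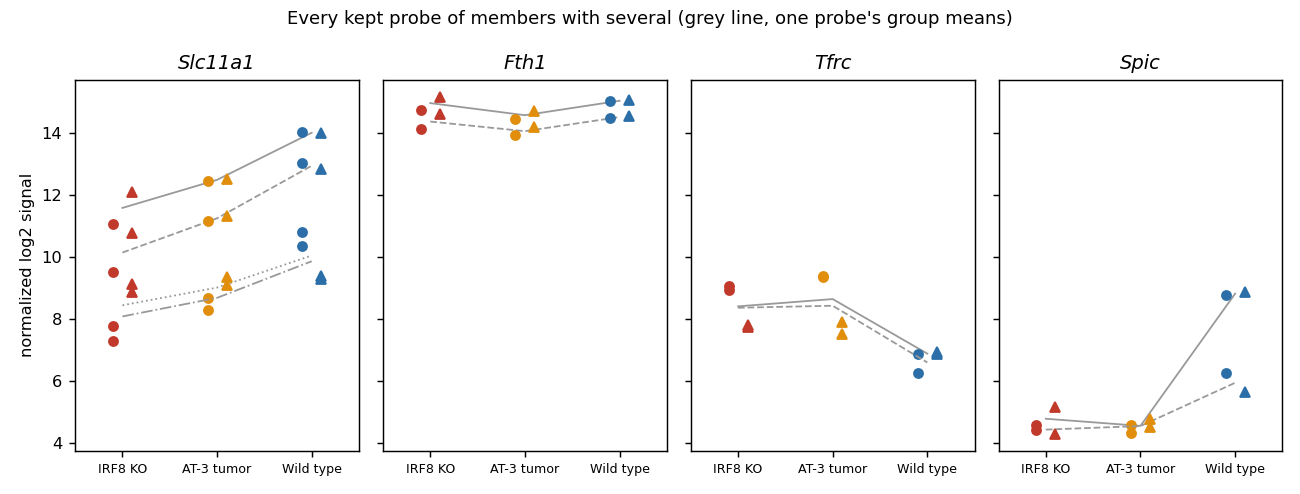
Normalized log2 signal on each array for every kept probe of the 4 members with several, with the group means of each probe joined in grey. The 4 Slc11a1 probes have their highest mean in wild type, as do both Spic probes, both Tfrc probes have their lowest there, and the Fth1 probes lie nearly level.

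The 2 ferritin chains differed in their calls. Fth1, the heavy chain that oxidizes iron, read 27928.4 and 38551.2 intensity units in KO, 19543.6 and 22037.3 in AT-3, and 34522.1 and 34760.3 in wild type. That is 46.8% to 92.8% of the highest intensity on the same array, close to the top of the scale in wild type (91.9% and 90.7%). Its log2 signals were 14.76 and 15.18 in KO, 14.46 and 14.70 in AT-3, and 15.03 and 15.06 in wild type, so that the KO arrays lay on either side of wild type. The difference was -0.07 ± 0.24 in KO (95% interval -0.63 to 0.48, limma, adjusted p = 0.844) and -0.47 ± 0.24 in AT-3 (95% interval -1.02 to 0.08, adjusted p = 0.166). The second Fth1 probe gave -0.15 in KO and -0.46 in AT-3 (limma over all probes, adjusted p = 0.694 and 0.197).

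Ftl1, the light chain that helps the iron core form, read 3947.1 and 5028.8 intensity units in KO, 3142.5 and 3677.3 in AT-3, and 8840.1 and 8596.4 in wild type. In log2 units it stood at 11.65 and 11.95 in KO, 12.25 and 12.54 in AT-3, and 12.86 and 12.87 in wild type, with no overlap between any of the groups. Ftl1 fell by 1.07 ± 0.23 in KO, or 2.1-fold (SE, limma, adjusted p = 0.0114). On leaving out wild-type array 1 or 2 it did not pass (adjusted p = 0.0816 and 0.0869). In AT-3 the difference was -0.48 ± 0.23 (95% interval -1.01 to 0.05, limma, adjusted p = 0.144). It passed where arrays were scaled on the median of detected probes (-0.89, adjusted p = 0.022), on that of all probes (-1.33, adjusted p = 0.0025) or not at all (-1.39, adjusted p = 0.00189). Relative to the median of all genes under the same scaling it was -0.95 in each. Ftl1 has closely similar copies in the mouse genome, and how far its probe separates them was not analysed here.

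Tfrc ran the other way. Its brighter probe read 829.4 and 385.3 intensity units in KO, 492.6 and 235.5 in AT-3, and 224.5 and 204.5 in wild type. The log2 signals were 9.08 and 7.75 in KO, 9.40 and 7.90 in AT-3, and 6.89 on both wild-type arrays. Both KO and both AT-3 arrays lay above wild type, with array 1 of each well above array 2. Tfrc rose by 1.76 ± 0.56 in AT-3, or 3.39-fold (SE, limma, adjusted p = 0.0465). It did not pass in 10 of 19 alternatives, and the difference was 1.01 without AT-3 array 1 (adjusted p = 0.221), 2.51 without AT-3 array 2 (adjusted p = 0.0242), and 1.77 and 1.76 without wild-type arrays 1 and 2 (adjusted p = 0.162 and 0.166). In KO the difference was 1.52 ± 0.56 (95% interval 0.20 to 2.84, limma, adjusted p = 0.0778), which did not pass. It was 0.86 without KO array 1 (adjusted p = 0.366) and passed at 2.19 without KO array 2 (adjusted p = 0.0422), as it did at 1.52 without either AT-3 array (adjusted p = 0.0467 in each). Which group Tfrc was called in turned with the scaling. With arrays scaled on the detected median, on the median of all probes or not at all, the KO difference was 1.87, 1.88 and 1.92 and passed (adjusted p = 0.0397, 0.0375 and 0.0273), and the AT-3 difference was 1.46, 1.02 and 0.96 and did not (adjusted p = 0.0825, 0.198 and 0.203). The second Tfrc probe gave 1.76 in KO and 1.83 in AT-3 (limma over all probes, adjusted p = 0.0655 and 0.0555).

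Erythroid markers, which belong to the cells best known for Tfrc, differed in opposite directions in the 2 groups. Their summed signal over 17 markers was 784 and 1170 in KO, 113000 and 94500 in AT-3, and 21400 and 14400 in wild type. Of the 17, 6 were detected in KO, 12 in AT-3 and 8 in wild type, and Klf1, Gata1, Epb42 and Rhd were detected on no array. Of 9 tested, 4 fell and none rose in KO, while 7 rose and none fell in AT-3. Over all genes 16.5% fell in KO and 17.3% rose in AT-3. Ermap, among those that rose in AT-3, and Ank1, which did not pass, were detected in AT-3 alone. Both entered the test only through AT-3, so that their differences there were in part built in, and the counts are a description. The globin gene Hba-a1 fell by 4.79 in KO and was above wild type by 2.67 in AT-3, and the red cell anion exchanger Slc4a1 rose by 5.70 in AT-3. In KO the erythroid sum lay below wild type on both arrays, and Tfrc lay above wild type on both, a difference that did not pass. The part of erythroid RNA in the Tfrc differences was not tested.

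Between AT-3 and KO no member passed the test by limma, where 11.5% of all genes did (5.34% lower and 6.16% higher). Both AT-3 arrays lay below both KO arrays for 2 members and above for 3, beside 29.0% and 25.6% of all genes. Hmox1 was higher in AT-3 by 0.91 (95% interval -0.01 to 1.82, limma, adjusted p = 0.181). Over the 19 alternatives the Hmox1 difference ran from 0.18 to 1.54, and it was largest without AT-3 array 1. Slc11a1 was higher in AT-3 by 0.91 (95% interval 0.12 to 1.70, limma, adjusted p = 0.13). Its difference ran from -0.06 unscaled to 1.43 without KO array 2. Slc40a1 was lower in AT-3 by a log2 difference of -0.37 (95% interval -0.86 to 0.13, limma, adjusted p = 0.305). With arrays scaled on the detected median, on the median of all probes or not at all, the Slc40a1 difference passed, at -0.76, -1.21 and -1.31 (adjusted p = 0.0446, 0.00332 and 0.0019). Relative to the median of all genes, which moved with the scaling, it was -0.49 in each.

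The remaining intervals of AT-3 minus KO were 0.06 to 1.12 for Ftl1, -0.95 to 0.16 for Fth1, -1.08 to 1.56 for Tfrc and -0.88 to 0.43 for Spic, whose AT-3 arrays had no signal above background. Cd163 was below background in both groups and gives no comparison. The interval of Tfrc was the widest of those given, and its arrays within a group lay far apart. The direction of the Ftl1, Tfrc, Spic and Slc11a1 differences changed under at least 1 other scaling of the arrays.

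Promoters were looked up because 5 of the members were lower in both groups and Spi-C and IRF8 bind known DNA motifs. RefSeq promoters of build GRCm38.p6 were at hand for 6 of the 8 members, and those of Hmox1 and Slc40a1 were not among them. The 250 bases before the start site are given for the 3 members with a promoter that fell most in KO, 5′ to 3′ along the gene, with each ETS core (GGAA, or TTCC on the other strand) in capitals. Spic is at chr10:88683024-88683273 on the minus strand, Slc11a1 at chr1:74374953-74375202 on the plus strand, and Ftl1 at chr7:45459887-45460136 on the minus strand.
Spic: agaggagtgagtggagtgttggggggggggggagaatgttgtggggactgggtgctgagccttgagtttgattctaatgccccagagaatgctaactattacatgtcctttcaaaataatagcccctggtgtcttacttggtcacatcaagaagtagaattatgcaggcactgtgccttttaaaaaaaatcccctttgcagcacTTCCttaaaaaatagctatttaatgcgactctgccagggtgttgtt
Slc11a1: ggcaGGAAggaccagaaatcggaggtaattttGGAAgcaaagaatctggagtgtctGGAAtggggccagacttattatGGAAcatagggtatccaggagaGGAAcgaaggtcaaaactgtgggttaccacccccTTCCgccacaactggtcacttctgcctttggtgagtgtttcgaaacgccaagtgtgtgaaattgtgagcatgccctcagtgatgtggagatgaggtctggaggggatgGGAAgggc
Ftl1: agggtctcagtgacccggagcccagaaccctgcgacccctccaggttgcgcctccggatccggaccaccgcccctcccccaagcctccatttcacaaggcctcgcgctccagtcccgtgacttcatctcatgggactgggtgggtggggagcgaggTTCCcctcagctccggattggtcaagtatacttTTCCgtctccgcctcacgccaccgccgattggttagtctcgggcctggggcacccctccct
The ETS core was found once in the Spic sequence, 7 times in that of Slc11a1 and 2 times in that of Ftl1. Over 32851 mouse promoters of the same length 93.4% held at least 1 core, with a median of 3, and 3.82% held 7 or more. The ETS-IRF composite element (GGAA and GAAA parted by any 2 bases, both strands, which contains the ETS core) is in 2.3% of all promoters, the interferon-stimulated response element core (GAAA repeated after any 2 bases) in 2.98% and the antioxidant element core (TGACNNNGC) in 10.2%. None of these 3 was found in the 8 promoters of the 6 members, and nothing about the factors follows from letters alone.

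The wider pathway was described with 7 lists of other genes. Their counts are to be read beside the shares of all genes, which were 15.4% higher and 16.5% lower in KO, and 17.3% higher and 17.6% lower in AT-3, so that 1 call in 7 to 10 genes is no more than that share. Of the list of heme uptake, transport and degradation, 9 of 13 were tested. Blvrb, a reductase of the step after heme oxygenase, was at 8.35 and 8.86 in KO against 10.40 and 10.20 in wild type and fell by 1.70 ± 0.29 (SE, limma, adjusted p = 0.00508), the only call of that list in KO. In AT-3 its only call was Blvra, the other biliverdin reductase, which rose by 1.24 ± 0.39 (limma, adjusted p = 0.0431), with an adjusted p of 0.109 to 0.156 without either AT-3 array and 0.157 to 0.167 without either wild-type array. Under the 3 other scalings the Blvra difference was 0.81, 0.37 and 0.31 (adjusted p = 0.18, 0.531 and 0.58). In the list of iron export and its control, 3 of 9 were tested and Hfe was called in both comparisons. Hfe, the hemochromatosis protein, read 6.06 and 4.78 in KO against 8.61 and 8.37 in wild type and fell by 3.07 ± 0.41 (SE, limma, adjusted p = 0.00203). Its fall of 1.42 ± 0.41 in AT-3 (limma, adjusted p = 0.0336) was lost without any 1 array of AT-3 or wild type (adjusted p = 0.0696 to 0.162).

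Among 7 tested genes of iron uptake and intracellular transport, 1 rose and 2 fell in KO. Trf, transferrin, fell by 2.26 ± 0.48 (SE, limma, adjusted p = 0.0113), with 0.0798 on leaving out KO array 1 and 0.0844 on leaving out wild-type array 1. Slc25a37, the mitochondrial iron importer, fell by 0.92 ± 0.28 (limma, adjusted p = 0.0435), which was lost without KO array 1, either AT-3 array, or wild-type arrays 1 or 2 (adjusted p = 0.167, 0.0527, 0.117 and 0.239). Sfxn1, a mitochondrial carrier, rose by 2.43 ± 0.49 in KO and by 2.32 ± 0.49 in AT-3 (limma, adjusted p = 0.00927 and 0.0106), and was the only call of the list in AT-3. Without wild-type arrays 1 and 2 its adjusted p was 0.0673 and 0.0517 in KO, and 0.0725 and 0.057 in AT-3, where it was 0.0629 without AT-3 array 1.

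In the list of storage, ferritin turnover and iron sensing, 7 of 9 were tested. Ncoa4 encodes the receptor that carries ferritin to the lysosome. It was at 10.07 and 9.37 in KO against 6.54 and 5.90 in wild type. It rose by 3.50 ± 0.36 in KO, or 11.3-fold (SE, limma, adjusted p = 0.000847), in all 19 alternatives. Ncoa4 rose by 1.76 ± 0.36 in AT-3 (limma, adjusted p = 0.00959), with 0.0598 on leaving out AT-3 array 1 and 0.0787 on leaving out wild-type array 2, and it was lower in AT-3 than in KO by a log2 difference of -1.75 (adjusted p = 0.0247). Fbxl5, the iron-sensing part of a ubiquitin ligase that removes the IRP proteins, fell by 1.53 ± 0.33 in KO (limma, adjusted p = 0.0127), with 0.0645 without KO array 1, and 0.0735 and 0.0845 without wild-type arrays 1 and 2. Ireb2, which encodes IRP2, fell by 0.93 ± 0.30 in AT-3 (limma, adjusted p = 0.0476), with 0.147 and 0.125 without AT-3 arrays 1 and 2, and 0.118 and 0.243 without wild-type arrays 1 and 2.

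In AT-3, 5 of the 10 tested genes of heme synthesis rose and none fell, with a median log2 difference of 0.95. Alas2, the erythroid form of the first enzyme, was at 12.02 and 10.18 in AT-3 against 6.51 and 6.06 in wild type. It rose by 4.81 ± 0.54, or 28.1-fold (SE, limma, adjusted p = 0.00138), and is itself on the erythroid marker list. Alad, the second enzyme, rose by 2.10 ± 0.47 (limma, adjusted p = 0.0137), with 0.0811 without AT-3 array 1, and 0.0779 and 0.0747 without wild-type arrays 1 and 2. Without AT-3 array 1, 3 genes of the list rose in AT-3, and without either wild-type array 1 gene did. In KO 2 of the 10 rose and 1 fell. Alas1, the form of the first enzyme in other cells, rose by 0.90 ± 0.26 (limma, adjusted p = 0.0357). The porphyrin transporter gene Abcb6, not detected in wild type, was at least 1.95-fold higher (adjusted p = 0.0356), and without background correction its difference was 0.41 (adjusted p = 0.0994). Without wild-type arrays 1 and 2 the adjusted p was 0.154 and 0.17 for Alas1 and 0.164 and 0.135 for Abcb6. It was 0.106 for Alas1 without KO array 1, 0.0528 without either AT-3 array, and 0.123 for Abcb6 without KO array 2. Alas2, not detected in KO, was at least 2.73-fold lower there on the corrected signals (limma, adjusted p = 0.035). Its adjusted p ran between 0.0971 and 0.174 without any 1 array of KO or wild type, and its difference was -0.68 without background correction (adjusted p = 0.395) and -1.03 with an offset of 50 (adjusted p = 0.175).

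For iron-sulfur cluster assembly 10 of 16 were tested, with 1 rise and 1 fall in KO and 4 rises and 1 fall in AT-3. Iscu, the scaffold on which clusters are built, fell by 1.73 ± 0.24 in KO and fell by 1.43 ± 0.24 in AT-3 (SE, limma, adjusted p = 0.00236 and 0.00497), the second with 0.0513 on leaving out wild-type array 1. Nfu1, a late-acting carrier, rose by 1.66 ± 0.28 in KO (limma, adjusted p = 0.00497; 0.0504 without wild-type array 2). In AT-3 the glutaredoxin Glrx5 rose by 1.69 ± 0.30 and the assembly factor gene Bola3 by 1.54 ± 0.36 (limma, adjusted p = 0.00582 and 0.0152). Without wild-type array 2 the adjusted p of Glrx5 was 0.0551, and that of Bola3 was 0.0821 without AT-3 array 1, and 0.0795 and 0.0917 without wild-type arrays 1 and 2. On the median of all probes and unscaled, Glrx5 was at 0.77 and 0.72 (adjusted p = 0.105 and 0.126) and Bola3 at 0.80 and 0.74 (adjusted p = 0.16 and 0.172). Without wild-type array 1 the list had 1 rise and no fall in AT-3, and without wild-type array 2 no rise and 1 fall.

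BACH1 represses Hmox1 and NRF2 induces it, and 11 of 18 of their regulators and other targets were tested. There were 2 rises and 4 falls in KO, and 4 rises and 2 falls in AT-3. Slc7a11, the cystine importer, fell by 2.91 ± 0.32 in KO (SE, limma, adjusted p = 0.00106) and was at least 22.8-fold lower in AT-3 on the corrected signals (adjusted p = 0.000415). Both calls held in all 19 alternatives, but the size did not, with differences of -3.38 to -1.10 in KO and -5.31 to -1.62 in AT-3. Tkt, transketolase, rose by 1.45 ± 0.22 in KO (limma, adjusted p = 0.00352), also in all 19. Gclm, a subunit of the enzyme that begins glutathione synthesis, and Prdx1, a peroxidase, rose in AT-3 by 2.05 ± 0.23 and 1.88 ± 0.26 (limma, adjusted p = 0.00142 and 0.00268), each in all 19. Mafg, a partner of both factors, rose in KO by 1.25 ± 0.25 and Srxn1, sulfiredoxin, fell by 1.61 ± 0.32 (limma, adjusted p = 0.00876 and 0.00918). Without wild-type arrays 1 and 2 the adjusted p was 0.073 and 0.0617 for Mafg and 0.0689 and 0.0588 for Srxn1, which was at 0.0538 without KO array 1. Taldo1, transaldolase, fell by 1.00 ± 0.22 in AT-3 (limma, adjusted p = 0.0128), with 0.0587 without AT-3 array 1, and 0.11 and 0.0629 without wild-type arrays 1 and 2. Without either wild-type array the list had 1 rise and 1 fall in KO. Bach1 itself, named after its values were seen, fell by 1.22 in KO (limma, adjusted p = 0.0072, and 0.055 and 0.0676 without wild-type arrays 1 and 2).

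Of the pathway genes whose calls held throughout, several changed in size with the processing. Over the alternatives the difference was 2.37 to 3.88 for Ncoa4 and -3.71 to -1.62 for Hfe in KO. In AT-3 it was 3.63 to 5.74 for Alas2, 1.10 to 2.16 for Gclm and 0.90 to 1.94 for Prdx1. On the median of all probes and unscaled, the AT-3 differences of Ncoa4 (1.08 and 1.02, adjusted p = 0.0531 and 0.0597) and Alad (1.43 and 1.38, adjusted p = 0.0739 and 0.0677) did not pass.

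**Figure D5:**
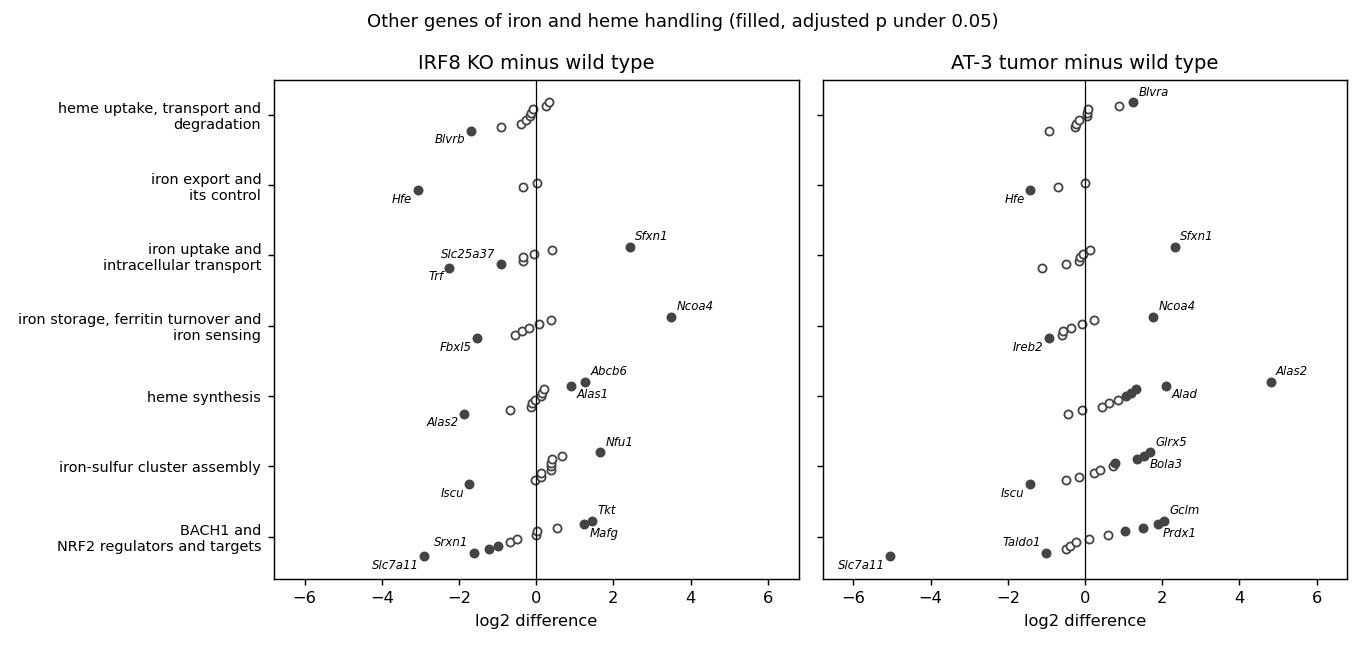
Log2 differences of the tested genes of 7 pathway lists, in KO and in AT-3, each against wild type, with genes past the adjusted threshold filled and the named ones written beside their points. Ncoa4 lies far to the right and Hfe and Slc7a11 far to the left in KO, while Alas2 lies far to the right and Slc7a11 far to the left in AT-3.

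Each member was also set beside the genes whose centred log2 values were most like its own over the 6 arrays, by the root mean square difference (RMS). For Spic these were Itgad, the integrin alpha D chain on the macrophage marker list (RMS 0.18, Pearson r = 0.997), then Slc39a4 and Epb41l3. For Hmox1 they were Nlrp12 (RMS 0.10, r = 0.998), Lgals3bp and Il18. Slc40a1 was nearest to Btnl2 (RMS 0.05, r = 0.998), H1f2 and Ccr3, and Slc11a1 to Lipa (RMS 0.14, r = 0.991), Gpr137b and Gpr137b-ps. Fth1 was nearest to Arhgap23 (RMS 0.05), Ftl1 to Timm10b (RMS 0.08) and Cd163 to Nemf (RMS 0.05). Tfrc had no gene as close, with Cd93 nearest (RMS 0.25, r = 0.972). The 6 arrays fall into 3 groups, so these values mostly restate the group means.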

How the data were processed

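The 6 arrays were put into groups by their titles. In the deposited unnormalized table each probe has an intensity for every array, linear in scale, and beside it a detection p-value that ranks the probe against the negative controls, per the file headers. The submitters' processing notes name GenomeStudio. The steps behind the deposited log2 table are not given in the sources used here. It equals the quantile-normalized log2 intensities with no background correction (array medians 6.91 or 6.92), and its scale and centring are known from that comparison only.

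With limma 3.58.1 in R 4.3.3, neqc took background from the detection p-values (normexp, offset 16), normalized by quantiles and gave log2 values. A probe was kept if its detection p was under 0.05 on 2 or more of the 6 arrays, and a gene took its brightest kept probe. Platform symbols were brought up to date by Entrez identifier. lmFit fitted the mean of each group, eBayes moderated the spread (3 residual and 4.29 prior degrees of freedom), and p-values had Benjamini-Hochberg adjustment. The fit, the moderation and the adjustment were tested on simulated data, while the background correction, normalization, filter and choice of probe were not. The median SE was 0.256, and having 2 arrays a group limits the precision. A fold is a bound where no array of the dimmer group detected the probe. It sets the brighter group's mean against, on each dim array, the higher of the lowest detected signal and the probe's own.

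All members and, of each pathway list, up to 2 genes that rose most and 2 that fell most among those called are named, with the 3 genes most like each member. The members and lists were chosen with earlier results of these data known. Replicate numbers are not said to mark shared experiments, and the array differences of same-numbered samples correlated at 0.086, -0.055 and 0.007. The alternatives tried were other background corrections, scalings, filters, probe rules, fits, the deposited log2 values and each array left out. They were not all distinct. The deposited values repeated the run without background correction. For a pair of groups, leaving out either array of the third group repeated the fit of those 4 arrays alone. Counts of alternatives include these repeats.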

Additional observations from a re-analysis of the deposited data

How the results depend on the processing

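In KO against wild type 3990 genes were called (1541 to 4316 without 1 array) and 6 members (4 to 7 over the alternatives, 4 to 6 without 1 array). In AT-3 against wild type 4360 genes were called (1531 to 4987 without 1 array) and 6 members (3 to 7, and 3 to 6 without 1 array). In AT-3 against KO 1436 genes were called, 3458 with arrays scaled on the median of detected probes, 6447 on that of all probes, 7079 unscaled, 607 with those 4 arrays alone, and 442 to 1596 without 1 array. No member was called there by limma, but 1, 1 and 2 were with the 3 scalings and 0 to 1 without 1 array. The scalings moved the median of all genes, in the same order, to 0.15, 0.16 and 0.20 in KO, 0.06, -0.38 and -0.44 in AT-3, and -0.27, -0.72 and -0.82 between them. Of the called genes 51.8% were lower in KO (39.7%, 38.7% and 35.3% with the 3 scalings), 50.5% in AT-3 (62.9%, 85.7% and 86.8%), and 46.4% in AT-3 against KO (78.8%, 94.2% and 95.2%).

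Spic, Hmox1 and Slc40a1 kept their calls against wild type in every alternative that tested them, as Slc11a1 did in KO. Spic entered these tests only through the wild-type arrays, and the strictest filter left it out. Fth1 in KO ran between -0.28 and 0.14 without 1 array, turning to 0.14 without KO array 1, and in AT-3 passed on the all-probe median (-0.69, adjusted p = 0.0472) and unscaled (-0.74, adjusted p = 0.0375), -0.30 relative to the median in each. In AT-3 minus KO the sign turned for Slc11a1 unscaled (-0.06). It turned for Ftl1 on the all-probe median (-0.30) and unscaled (-0.40). Tfrc turned on the detected median (-0.41), the all-probe median (-0.86), unscaled (-0.96), and without KO array 2 (-0.43) or AT-3 array 1 (-0.51), within -0.51 to 0.99 without 1 array. Spic turned on the detected median (0.21) and without KO array 2 (0.15), within -0.59 to 0.15 without 1 array. Cd163 turned on the detected median (0.48), the all-probe median (0.03), and without KO array 1 (0.01) or AT-3 array 1 (0.064), within -0.076 to 0.064 without 1 array. Bach1 turned on the all-probe median (-0.34) and unscaled (-0.44). The causes were not tested.

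With the replicate block 3750, 4154 and 1279 genes and 6, 5 and 0 members were called in KO, AT-3 and AT-3 against KO. Tfrc passed in KO (adjusted p = 0.0247) and Cd163 in neither (0.0717 and 0.0657). The array differences of same-numbered samples correlated at 0.086 at most. The labels do not say whether same-numbered arrays share a batch, and this was not tested. A slide block was not run, because no slide was assigned to the arrays used here. Dim probes, Cd163 above all, are limited by signal over background.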
